A study of Drosophila melanogaster with 3 samples.

Results

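The genes described are the translation factor genes of Drosophila melanogaster, taken as every protein-coding gene whose Ensembl name starts with eIF (initiation factors), eEF (elongation factors) or eRF (release factors). There were 54 such genes among the 13945 protein-coding genes of the 6 chromosome arms (X, 4 and both arms of chromosomes 2 and 3), and no measured value entered the choice. They were scored for binding of the zinc finger protein CG2678 in chromatin immunoprecipitation sequencing (ChIP-seq) of whole embryos. The embryos came from a transgenic line that carries CG2678 fused at its C-terminus to GFP, were 0 to 24 h old and of both sexes, and their chromatin was precipitated with an antibody against GFP. There were 3 biological replicates of this 1 group, with no treated or mutant group beside it, so the comparisons are between genes and between replicates. The samples share 1 line and a tagged transgene, and they mix ages and all cell types of the embryo, so a peak cannot be placed in a given tissue or stage.

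Translation begins when the small ribosomal subunit, with the initiator tRNA carried by eIF2 and the scaffold eIF3, is brought to the capped end of an mRNA by the eIF4 factors and scans to a start codon. The eEF factors then deliver aminoacyl-tRNAs and move the ribosome along, and the eRF factors end synthesis at a stop codon. These genes are needed in almost every cell, and several have copies used mainly in the germline. CG2678 is also named kipferl and is best known in the ovary, where it helps to bring the chromatin protein Rhino to loci that give rise to piRNAs.

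A peak is a stretch of the genome where immunoprecipitated DNA was enriched over a control library, and its summit is the deposited position of highest enrichment. A gene was counted as having a promoter summit when a summit lay no more than 500 bp from a transcription start site (TSS) annotated for it. The relaxed lists of the replicates and of their pool held 30000 peaks each. The IDR list held the 9459 peaks kept after a filter on the irreproducible discovery rate, a measure of how well peak ranks hold between replicates, and these were the 9459 strongest peaks of the pooled list. The signal of a peak is the authors' own value and served here to rank the peaks of 1 list, with rank 1 the strongest. Read counts per sample are not in the lists, so depth and counting error are unknown. The only error between samples given is the spread between the 3 replicates. Binomial intervals, and SDs and SEMs marked as over summits, are spreads over genes or summits and not over samples. No test was run on the shares of genes.

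Windows around 5 IDR summits at these genes are printed in order of IDR rank, from 46 at eIF4EHP to 7790 at eIF4G2. Each is read 5′ to 3′ on the strand of the gene, in the dm6 assembly (RefSeq copy), centred on the summit and ended where an annotated exon begins. Capitals mark runs of 6 or more A or T bases. The eIF4EHP window is chr3R:24109139-24109239 on the minus strand, upstream of the gene. The eRF3 window is chr2L:12434208-12434308 on the plus strand, upstream of the gene. That of eEF1gamma is chr3R:29220085-29220171 on the plus strand and ends at the base before the TSS. That of eIF1 is chr3L:3223000-3223100 on the plus strand, upstream of the gene. That of eIF4G2 is chr3R:23819238-23819290 on the minus strand and ends at the base before the TSS.
eIF4EHP: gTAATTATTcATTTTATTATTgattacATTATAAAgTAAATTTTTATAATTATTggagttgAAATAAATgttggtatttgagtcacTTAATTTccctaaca
eRF3: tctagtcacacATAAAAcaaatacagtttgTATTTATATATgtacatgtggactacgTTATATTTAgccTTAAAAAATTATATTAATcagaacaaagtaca
eEF1gamma: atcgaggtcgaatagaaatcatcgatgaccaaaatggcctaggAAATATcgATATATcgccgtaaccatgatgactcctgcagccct
eIF1: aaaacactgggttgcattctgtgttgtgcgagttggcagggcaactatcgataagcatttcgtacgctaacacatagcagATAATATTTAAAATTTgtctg
eIF4G2: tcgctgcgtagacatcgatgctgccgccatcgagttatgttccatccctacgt

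These windows differ widely in their bases. The eIF4EHP window had a GC content of 19.8%, and 60 of its 101 bases stood in 6 runs of A and T. The eRF3 window had 24.8% GC and 4 such runs, the longest of 18 bases. The eIF1 window had 39.6% GC with 1 run of 16 bases, the eEF1gamma window 44.8% with 2 runs of 6 bases, and the eIF4G2 window 54.7% with no run.

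An IDR promoter summit was found at 17 of the 54 translation factor genes (31.5%), against 22.5% of all protein-coding genes. The remaining 37 translation factor genes had none. By role, such a summit stood at both release factor genes, at the single eIF6 gene, at 3 of 5 start-codon and subunit factor genes and at 4 of 8 elongation factor genes. It stood at 3 of 13 eIF4 genes (23.1%), 3 of 16 eIF3 genes (18.8%), 1 of 8 eIF2 and eIF2B genes (12.5%) and not at eIF2A, whose protein is an alternative carrier of initiator tRNA. The roles with 1 to 5 genes are too small for their shares to be read as more than counts. The plot of ranks by list shows each gene with a summit in at least 1 list.

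**Figure D1:**
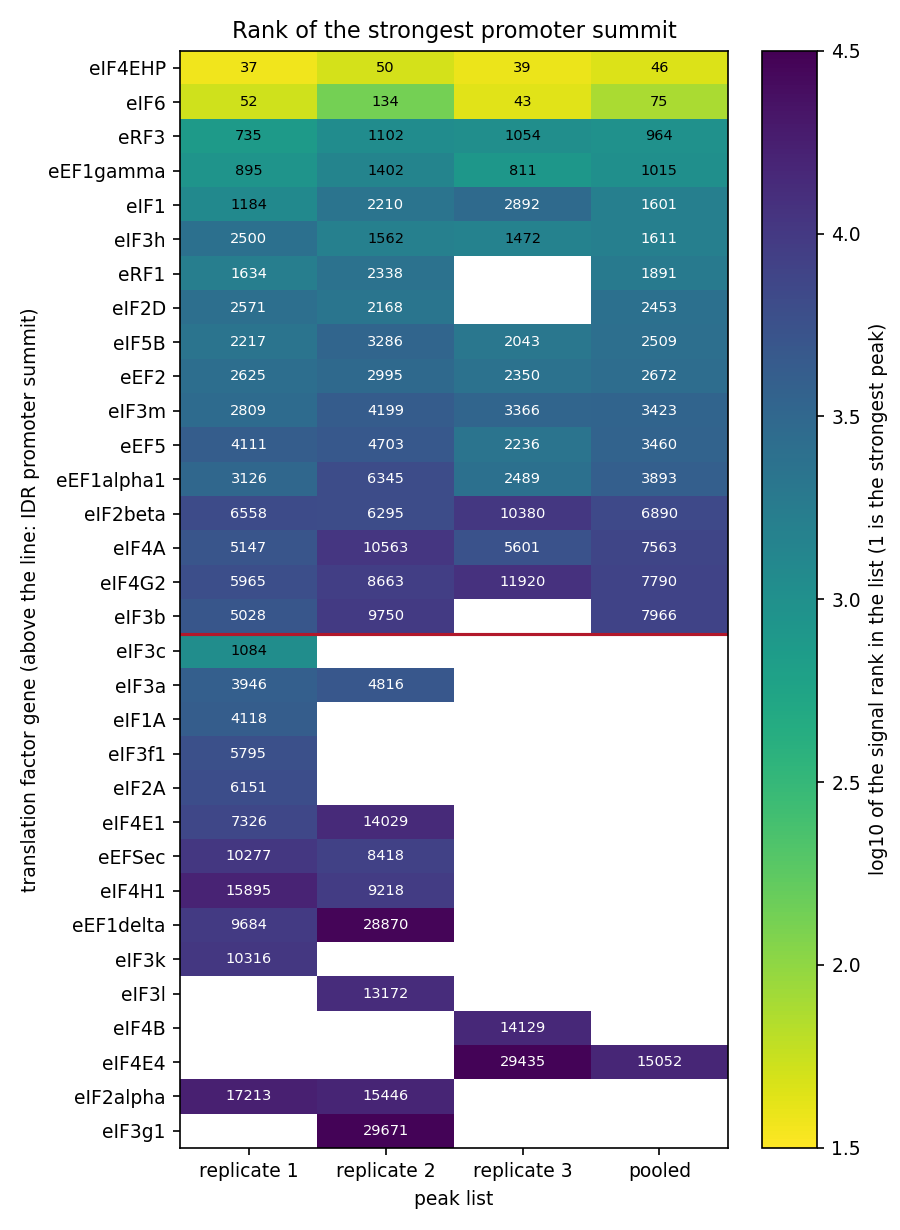
Signal rank of the strongest promoter summit (columns: the 3 replicates and the pooled list; colour: log10 of the rank, white where the list has no promoter summit) for each translation factor gene with a summit in at least 1 list; each list has its own strongest summit, which can be a different summit of the gene. The 17 genes above the red line have an IDR promoter summit, led by eIF4EHP at pooled rank 46 and eIF6 at pooled rank 75, and the genes below it lack entries mainly in the replicate 3 and pooled columns.

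Among the cap-binding factors, eIF4EHP had the strongest promoter peak of all translation factor genes. Its protein binds the mRNA cap without recruiting the ribosome and, in the early embryo, represses caudal mRNA together with Bicoid. The peak ranked 37 in replicate 1, 50 in replicate 2 and 39 in replicate 3, and 46 in the IDR list. The replicates therefore placed it almost alike. Its summit lay 229 bp upstream of the eIF4EHP TSS on 3R. Relative to the TSS of CG18428, the nearer of these genes, it stood at -147 bp. The IDR peaks at the other eIF4 genes were weak. At eIF4A, the RNA helicase that unwinds mRNA leaders, the IDR rank was 7563, with ranks of 10563 in replicate 2 and 5601 in replicate 3. The strongest promoter summit of eIF4A in replicate 1, at rank 5147, was a different summit, 849 bp from the IDR summit and at another TSS of the gene. At eIF4G2, a copy of the eIF4G scaffold required in spermatogenesis, the IDR rank was 7790, with ranks of 5965, 8663 and 11920 in replicates 1, 2 and 3. Its summit lay 3 bp upstream of a TSS that eIF4G2 shares with CG33111, so the peak cannot be given to either of these genes alone.

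The gene of eIF6, which binds the large ribosomal subunit and keeps the subunits apart, had the next strongest peak. It ranked 52, 134 and 43 in replicates 1, 2 and 3, and 75 in the IDR list. All 3 replicates put the summit at the same base, 99 bp upstream of the eIF6 TSS. An antisense RNA gene, asRNA:CR45928, had the nearer TSS, 70 bp away, and with only peaks to go by the pair cannot be separated.

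Both release factor genes were marked upstream of their TSSs. The peak at eRF3, the GTPase of the pair, ranked 735, 1102 and 1054 in replicates 1, 2 and 3, and 964 in the IDR list, 194 bp upstream of a TSS. It was also within reach of SC35, at -220 bp from the TSS of that gene. The peak at eRF1, which reads the stop codon, ranked 1634 in replicate 1 and 2338 in replicate 2 and was not in the list of replicate 3, although its IDR rank was 1891. The eRF1 summit was 133 bp upstream of its TSS, and it was within reach of Rbbp5 as well.

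Elongation factor genes with IDR promoter summits spanned the main steps of elongation, but their peaks were of middle strength. The gene of eEF1gamma, a subunit of the exchange complex for eEF1alpha, ranked 895, 1402 and 811 in replicates 1, 2 and 3, and 1015 in the IDR list. Its summit fell 37 bp upstream of the TSS and moved by at most a few bases between replicates, from 36 to 41 bp upstream. The translocase gene eEF2 ranked 2625, 2995 and 2350 in replicates 1, 2 and 3, and 2672 in the IDR list. At eEF5, the factor also named eIF5A that relieves ribosomes stalled at proline runs, the ranks were 4111, 4703 and 2236 in replicates 1, 2 and 3, with an IDR rank of 3460. The summits of eEF2 and eEF5 were 27 bp and 6 bp downstream of a TSS. At eEF1alpha1, which delivers aminoacyl-tRNA to the ribosome, 3 IDR summits lay within 500 bp of a TSS and the strongest had an IDR rank of 3893, with ranks of 3126 in replicate 1 and 2489 in replicate 3. In replicate 2 the strongest promoter summit of eEF1alpha1, at rank 6345, lay 108 bp from that IDR summit and was not counted as its match. The elongation genes with no IDR promoter summit were its copy eEF1alpha2, the exchange subunits eEF1beta and eEF1delta, and the selenocysteine factor eEFSec.

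Of the start-codon and subunit factors, eIF1, eIF2D and eIF5B had an IDR promoter summit and eIF1A and eIF5 did not. The peak at eIF1, which guards the accuracy of start-codon choice, ranked 1184, 2210 and 2892 in replicates 1, 2 and 3, and 1601 in the IDR list. Its strongest summit was 291 bp upstream of eIF1 and 90 bp upstream of the ribosomal protein gene RpL28, the nearer gene. A weaker IDR summit, of rank 2516, lay 86 bp upstream of eIF1 itself, and replicate 3 placed its strongest summit 99 bp upstream. At eIF2D, whose protein places tRNA on the small subunit outside the usual eIF2 route, the peak ranked 2571 in replicate 1 and 2168 in replicate 2, was not in the replicate 3 list, and had an IDR rank of 2453. At eIF5B, the GTPase that joins the subunits, the ranks were 2217, 3286 and 2043 in replicates 1, 2 and 3, with an IDR rank of 2509. The summit of eIF2D was 111 bp upstream of the TSS. That of eIF5B was 128 bp upstream of the nearest of its 2 TSSs, but within an untranslated exon of the gene itself.

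Of the 16 genes for subunits of the initiation scaffold eIF3, those with an IDR promoter summit were eIF3h, eIF3m and eIF3b, a share of 18.8% that is near the 22.5% of all protein-coding genes. At eIF3h the ranks were 2500, 1562 and 1472 in replicates 1, 2 and 3, with an IDR rank of 1611. The summit lay 291 bp downstream of the nearest TSS of eIF3h, in an intron. At eIF3m the ranks were 2809, 4199 and 3366 in replicates 1, 2 and 3, with an IDR rank of 3423 and a summit 48 bp upstream. The weakest of all 17 was eIF3b, the RNA-binding core subunit, with an IDR rank of 7966, ranks of 5028 in replicate 1 and 9750 in replicate 2, and no promoter summit in replicate 3. Among the 8 genes of eIF2 and of its exchange factor eIF2B, only eIF2beta had an IDR promoter summit, 268 bp upstream of its TSS. It ranked 6558, 6295 and 10380 in replicates 1, 2 and 3, and 6890 in the IDR list. None of the 5 eIF2B genes had a promoter summit in any list.

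As a group, the 17 genes with an IDR promoter summit had a median IDR rank of 2509, with quartiles of 1601 and 3893, against a median of 2948 and quartiles of 1169 and 5714 over the 3141 protein-coding genes with one. The median signal was 951 at translation factor genes and 818 over all these genes. A second list tells how far the IDR calls depend on the threshold. The pooled list held a promoter summit at 18 translation factor genes (33.3%), against 34.1% of all protein-coding genes. The gene gained was eIF4E4, a copy of the cap-binding protein, at pooled rank 15052. The higher share at translation factor genes was thus limited to the strong end of the pooled list, since over the whole list the shares were alike.

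The replicates differed in how many translation factor genes they marked. Among the 9459 strongest peaks of each replicate, a promoter summit stood at 23 genes (42.6%) in replicate 1, against 29.5% of all protein-coding genes. In replicate 2 there were 18 (33.3%), against 23.2%, and in replicate 3 there were 12 (22.2%), against 21.7%. The mean over replicates was 32.7% ± 10.2 for translation factor genes and 24.8% ± 4.13 for all protein-coding genes (SD, n = 3 each). The excess over all genes was therefore largest in replicate 1 and close to nil in replicate 3. Both shares come from the same replicates, and both fell from replicate 1 to replicate 3. The SD of either share is thus not the error of their difference, which was not estimated. A gene was called matched in a replicate when 1 of the 9459 strongest summits of that replicate was at most 100 bp from its strongest IDR summit. The strongest IDR promoter summit was matched in all 3 replicates at 9 translation factor genes (16.7% of the 54), against 15.6% of all protein-coding genes. Taken over genes with an IDR promoter summit, that is 52.9% of the 17, against 69.1% of the 3141. Replicate 1 matched all 17, against 89.5% over all protein-coding genes with one. Replicate 2 matched 14 (82.4%, against 88.0%) and replicate 3 matched 11 (64.7%, against 81.3%). With replicate 3 left out, the number matched in the remaining replicates was 14. A match asked of fewer replicates can only keep or raise the number.

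**Figure D2:**
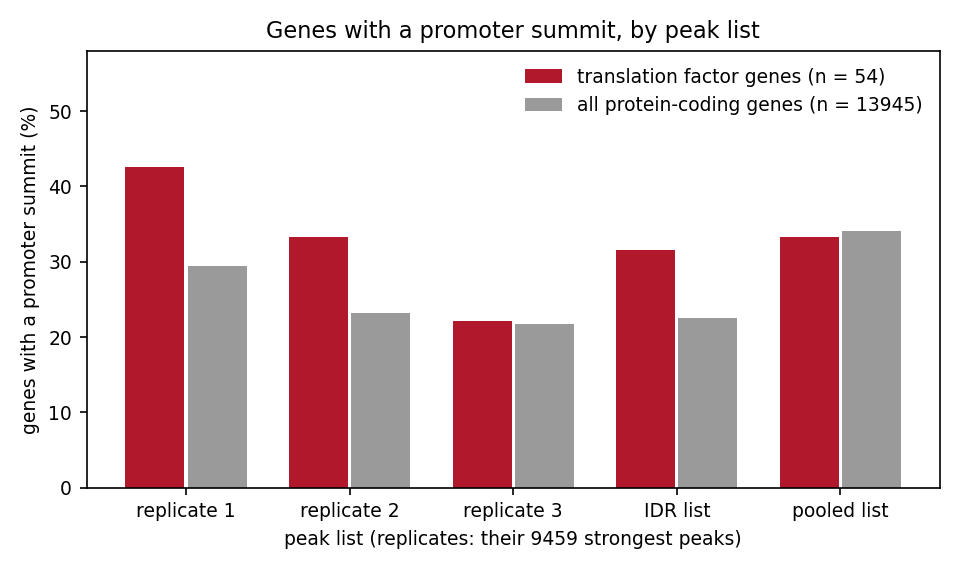
Share of genes with a promoter summit (%) in the 9459 strongest peaks of each replicate, in the IDR list and in the pooled list, for translation factor genes (red, n = 54) and all protein-coding genes (grey, n = 13945). The red bar stands above the grey bar in replicates 1 and 2 and in the IDR list, and close to it in replicate 3 (22.2% and 21.7%) and in the pooled list (33.3% and 34.1%).

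A gene with more TSSs offers more sequence in which a summit can count. Translation factor genes had 1.52 TSSs on average, and all protein-coding genes 1.41. Among genes with 1 TSS, an IDR promoter summit stood at 5 of 32 translation factor genes (15.6%), against 16.1% of all protein-coding genes with 1 TSS. With 2 TSSs it stood at 9 of 18 translation factor genes, against 33.5% of all such genes, and with 3 or more at 3 of 4, against 55.8%. The higher share of the translation factor genes was thus found among those with several TSSs and not among those with 1. With only the 5′-most TSS of each gene used, the shares were 31.5% of translation factor genes and 19.9% of all protein-coding genes. The part that the number of TSSs plays in the share was not tested.

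**Figure D3:**
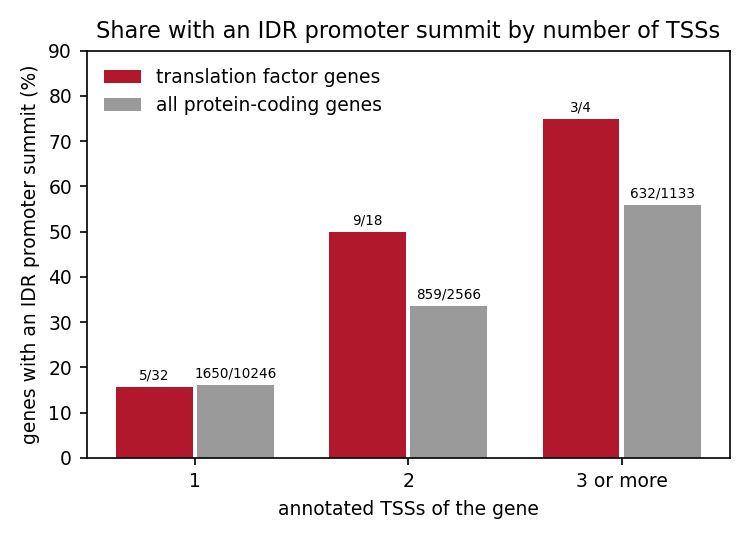
Share of genes with an IDR promoter summit (%) by the number of annotated TSSs of the gene, for translation factor genes (red) and all protein-coding genes (grey), with the counts above the bars. With 1 TSS the bars are alike at 15.6% and 16.1%, and with 2 TSSs they stand at 9 of 18 genes and 859 of 2566 genes.

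Summit positions within the promoter were compared next. Of the 17 strongest IDR summits at translation factor genes, 13 lay upstream of the nearest TSS of the gene (76.5%, exact 95% binomial interval 50.1% to 93.2%), against 83.3% over all protein-coding genes with one. That interval treats the genes as independent. The median distance was -99 bp at translation factor genes and -153 bp over all protein-coding genes. Within 60 bp of a TSS lay 7 of the 17 (41.2%), against 14.1% over all protein-coding genes. Those 7 genes were eEF1gamma, eEF2, eEF5, eIF3m, eIF3b, eIF4A and eIF4G2. The 60-bp limit was chosen after the positions had been seen, so this share is a description. The 7 summits near a TSS were on the whole weaker, with a median IDR rank of 3460, against 1751 for the other 10 translation factor genes. The same order held over all protein-coding genes, with medians of 5714 within 60 bp and 2592 beyond it.

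Base content at the summits differed as well. Over the 101 bases centred on the summit, GC content averaged 41.1% ± 10.9 at translation factor genes (SD, n = 17 summits), against 32.0% ± 10.2 over all protein-coding genes (SD, n = 3141 summits). At positions 300 bp to either side, the means were 42.3% at translation factor genes and 44.3% over all protein-coding genes. The summit was poorer in GC than its own flanks at 8 of the 17 (47.1%), against 79.8% over all protein-coding genes. The translation factor genes with the A- and T-rich summits that most bound promoters had were eIF4EHP (19.8% GC), eRF3 (24.8%), eIF2D (25.7%) and eRF1 (26.7%), and their flanks had 41.1%, 43.6%, 51.5% and 44.6%. At the other end stood eIF4A with 60.4% GC, then eEF2 and eIF4G2 with 50.5% each and eEF5 with 49.5%. Among summits within 60 bp of a TSS the mean was 49.1% for the 7 translation factor genes and 42.0% for the 443 protein-coding genes. Beyond 60 bp it was 35.4% for the other 10 and 30.4% for the other 2698. The summits of translation factor genes therefore had the higher mean GC content in both classes, by less than 1 SD of the values over all protein-coding genes in each. What part position has in base content was not tested.

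**Figure D4:**
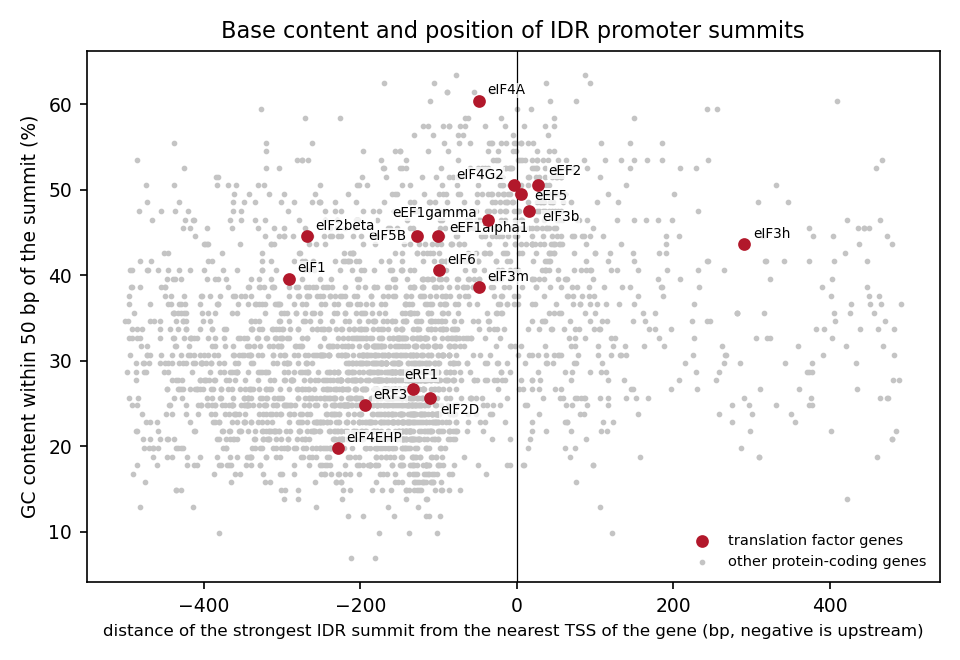
GC content of the 101 bases centred on the strongest IDR promoter summit (%) against its distance from the nearest TSS of the gene (bp, negative is upstream), for the 17 translation factor genes (red, named) and the other protein-coding genes (grey). The 4 named genes under 30% GC are eIF4EHP, eRF3, eRF1 and eIF2D, all over 100 bp upstream, and the named genes near distance 0 lie mostly between 45% and 60%.

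Averaged over windows of 51 bp and read in the direction of transcription, the profile at translation factor genes stood above that of all genes at and near the summit. It had a local maximum of 43.5% in the window 25 bp upstream of the summit, while that of all genes had its minimum of 31.6% at the summit. Centred on the summit, the mean GC content was 43.0% ± 3.29 at translation factor genes and 31.6% ± 0.208 over all protein-coding genes (SEM over summits, n = 17 and n = 3141). At 75 bp upstream the values were 34.0% ± 3.71 at translation factor genes and 35.2% ± 0.215 over all protein-coding genes. At 75 bp downstream they were 35.8% ± 3.27 at translation factor genes and 36.7% ± 0.214 over all protein-coding genes. The profiles thus parted at the summit and lay close together 75 bp to either side. They parted again farther upstream, in the other direction. At 150 bp upstream the values were 34.9% ± 2.81 at translation factor genes and 39.4% ± 0.208 over all protein-coding genes. At 325 bp upstream they were 35.6% ± 3.90 and 42.6% ± 0.216. At 400 bp upstream translation factor genes were no longer lower, with 44.1% ± 3.17 against 43.0% ± 0.221.

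**Figure D5:**
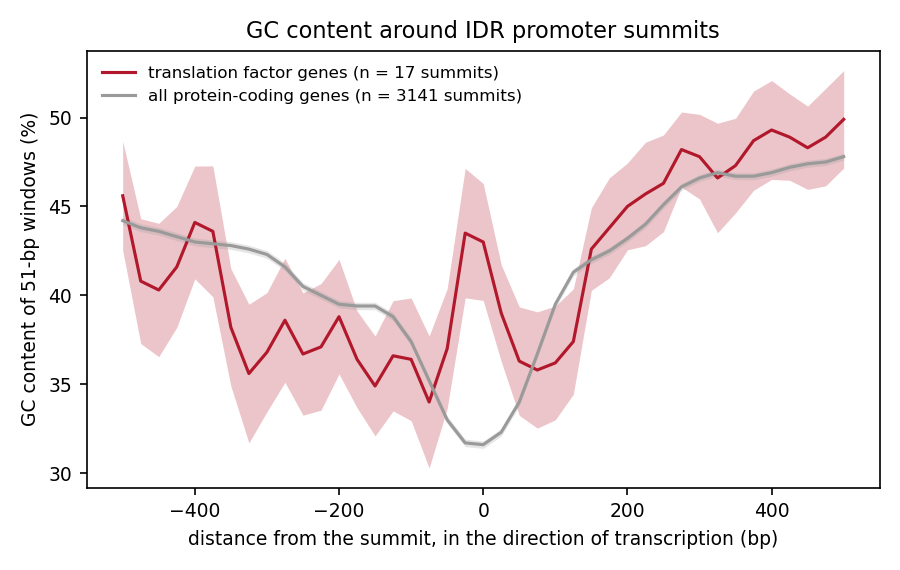
Mean GC content (%) of 51-bp windows by distance from the strongest IDR promoter summit (bp, in the direction of transcription), for 17 translation factor genes (red) and all 3141 protein-coding genes with such a summit (grey), with bands of 1 SEM over summits. At distance 0 the red line stands at 43.0% and the grey line at 31.6%.

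Short promoter words were counted on both strands in the 101-bp windows, beside windows of equal length 99 bp upstream of the TSS of every protein-coding gene. The TATA-box word TATAAA was in 4 of the 17 windows (23.5%), those of eIF4EHP, eIF6, eRF3 and eRF1, and in 18.2% of all promoter windows. Among all 3321 IDR promoter summits it was in 24.1%, close to the share at translation factor genes. The word TATCGATA, the core of the DNA replication-related element, was in 2 windows (11.8%), those of eEF1gamma and eIF1, both printed above, and in 2.67% of all promoter windows. The guanine-rich words GAGG or GGGG were in 8 windows (47.1%) and in 36.5% of all promoter windows. The A-tract AAAAAA was in 3 windows (17.6%) and in 23.2% of all promoter windows. The word GAGAG was in 1 window, that of eIF4A, and in 13.4% of all promoter windows. The initiator word TCAGTT was in none of the 17 and in 6.86% of all promoter windows. The word GGTCACAC was also in none and in 1.43% of all promoter windows. At all IDR promoter summits the shares were 1.69% for TATCGATA, 30.1% for GAGG or GGGG, 27.6% for AAAAAA and 9.88% for GAGAG. They were 6.41% for TCAGTT and 0.873% for GGTCACAC. Windows centred on a summit and windows at a fixed distance sample different positions, these words can overlap with others, and counts of 0 to 8 in 17 windows leave wide room for error.

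Neighbouring genes share some of these summits. At 8 of the 17 translation factor genes (47.1%) the strongest summit was also within 500 bp of a TSS of another protein-coding gene, against 45.9% over all protein-coding genes with an IDR promoter summit. The translation factor gene held the nearest TSS at 13 of 17 (76.5%), against 74.6% over all. The exceptions were eIF4EHP, eIF6, eIF1 and eIF4G2. At eIF4G2 this was a tie with CG33111, and ties were broken by gene name. Several IDR promoter summits stood at 5 of the 17 translation factor genes, and all 17 together had 23. The same counts were not made over all protein-coding genes, so these cannot be called many or few.

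Farther than 500 bp from any TSS of the gene itself, IDR summits lay in the bodies of 2 translation factor genes (3.70%), against 12.7% of all protein-coding genes. Summits near a TSS of another gene were not left out. The median gene length was 1968 bp for translation factor genes and 2166 bp for all protein-coding genes. The body of eIF4EHP, which spans 45884 bp, held 10 IDR summits of rank 1956 to 8136, of which 2 fell in untranslated exons of Syx1A, which it overlaps. The body of eIF5B, which spans 32320 bp, held 7 IDR summits, all in introns. The strongest of these, at rank 713, was stronger than the promoter peak of eIF5B at rank 2509.

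For the 37 translation factor genes with no IDR promoter summit, the nearest IDR summit to a TSS was a median of 11919 bp away, with quartiles of 7068 and 24043 bp. Over the 10804 protein-coding genes with none, the median was 8620 bp, with quartiles of 3621 and 18068 bp, so the interquartile ranges overlap. The closest was 690 bp from eIF2Bbeta, a subunit of the eIF2 exchange factor, and that peak, of IDR rank 3, lay 29 bp upstream of Ugalt. It was the only one within 1000 bp (2.70% of the 37, against 5.25% over all protein-coding genes with none). The farthest was 590980 bp from eIF4B, near the centromere end of 3L. Of the 13945 protein-coding genes, 9189 had no pooled promoter summit, and all but 2362 of these had none in any list. Genes with a summit in no list are thus common. Among the 37 translation factor genes, no list held a promoter summit at 22. These 22 were the 5 eIF2B genes and eIF2gamma; eIF3d1, eIF3d2, eIF3e, eIF3f2, eIF3g2, eIF3i and eIF3j; eIF4E3, eIF4E5, eIF4E6, eIF4E7, eIF4G1 and eIF4H2; and eEF1alpha2, eEF1beta and eIF5.

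A further 14 translation factor genes had a promoter summit in the list of 1 or 2 replicates but none in the pooled list. They made up 38.9% of the 36 translation factor genes without a pooled promoter summit, against 25.7% of all protein-coding genes without one. Of the 14, 11 had the summit in replicate 1 (78.6%, against 75.1% of the 2362 protein-coding genes of this kind). In replicate 2 there were 8 (57.1%, against 708 of the 2362) and in replicate 3 there was 1 (7.14%, against 30.7%), and none of the 14 had it in all 3. The strongest was at eIF3c, a core scaffold subunit, with rank 1084 in replicate 1 and no promoter summit in replicate 2, replicate 3 or the pool. The largest scaffold subunit, eIF3a, ranked 3946 in replicate 1 and 4816 in replicate 2. In replicate 1 alone, eIF1A ranked 4118, eIF3f1 5795 and eIF2A 6151. The cap-binding protein gene eIF4E1 ranked 7326 in replicate 1 and 14029 in replicate 2. Ranks this high in a single replicate were thus found for genes that the pool did not call at all. No pooled peak interval covered any of the 20 replicate summits at these 14 genes. Their GC content averaged 41.0% ± 10.2 (SD, n = 20 summits) and that of their flanks 41.3%, and 9 of the 20 were poorer in GC than their own flanks. Of the promoter summits among the strongest peaks of replicate 1, 6 of 23 translation factor genes had no pooled counterpart (26.1%), against 24.3% over all protein-coding genes. In replicate 2 this was 3 of 18 (16.7%), against 8.29%, and in replicate 3 it was 0 of 12, against 7.96%. Such losses in replicate 1 were therefore about as common at translation factor genes as at other genes.

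A group of 11 genes was taken as copies of other translation factor genes, by name: eEF1alpha2, eIF3d2, eIF3f2, eIF3g2, eIF4E3, eIF4E4, eIF4E5, eIF4E6, eIF4E7, eIF4G2 and eIF4H2. Several of them are used mainly in the testis. The gene eIF4EHP, whose name also begins with eIF4E but carries no copy number, was counted among the others. It had the strongest promoter peak of all translation factor genes, and the shares with it among the copies were not computed. An IDR promoter summit stood at 1 of these 11 genes (9.09%), that of eIF4G2, and at 16 of the 43 others (37.2%), against 22.5% of all protein-coding genes. In the strongest peaks of the replicates the copies had a promoter summit at 6.06% ± 5.25. The other translation factor genes had one at 39.5% ± 11.6, and all protein-coding genes at 24.8% ± 4.13 (SD, n = 3 each). The ranges of the copies and of the other translation factor genes did not overlap. The copies had 1.18 TSSs on average and the others 1.60, and the part of this in the shares was not tested. By arm, an IDR promoter summit stood at 4 of 6 translation factor genes on 2L, against 21.6% of all protein-coding genes there, and at 5 of 13 (38.5%) on 2R, against 21.2%. It stood at 4 of 12 (33.3%) on 3L, against 24.8%, and at 4 of 15 (26.7%) on 3R, against 22.1%. None of the 7 on the X had one, against 23.9% of all protein-coding genes on the X, nor did eIF4G1, the main cap-complex scaffold, on arm 4, where 3.75% of all protein-coding genes had one. The X-linked genes were eIF2alpha, eIF2Bbeta, eIF2Bepsilon, eIF3g1, eIF4E7, eIF4H1 and eIF5.

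Other genes of the pathway were taken from 3 lists of 36 matched genes, of which 14 had an IDR promoter summit (38.9%, against 22.5% of all protein-coding genes). In the list of initiation control and mRNA partners it was 8 of 18 (44.4%). The strongest was larp, an RNA-binding regulator of mRNA translation, at IDR rank 52 with ranks of 91, 47 and 50 in replicates 1, 2 and 3. The others were pAbp, the poly(A)-binding protein, at 2468, the eIF4E-binding repressor Thor at 3721, crc, the ATF4 factor of the stress response, at 4296, the eIF4E kinase Lk6 at 4709, NAT1 at 4969, MCTS1, a partner of DENR in reinitiation, at 5662, and the RNA helicase bel at 6356. Of the elongation, rescue and recycling list, 5 of 9 had a summit (55.6%). These included Dph2 and Dph1, which make the diphthamide of eEF2, at 1047 and 1465, and the rescue factors pelo and HBS1 at 2383 and 3288. The fifth was nero, the hydroxylase that completes hypusine on eEF5, at 8434. Of 9 mitochondrial translation factor genes 1 had a summit, mIF2 at rank 9055.

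Set beside the other protein synthesis genes, translation factor genes resembled aminoacyl-tRNA synthetase genes in share and were below ribosomal protein genes. The synthetase genes take in those of mitochondrial enzymes, while the translation factor genes hold no mitochondrial factors. In the strongest peaks of the replicates, a promoter summit stood at 32.7% ± 10.2 of translation factor genes and 32.3% ± 9.26 of the 33 synthetase genes. It stood at 77.2% ± 5.75 of the 92 ribosomal protein genes and 24.8% ± 4.13 of all protein-coding genes (SD, n = 3 each). The ranges of translation factor and ribosomal protein genes did not overlap over the replicates. In the IDR list the counts were 17 of 54 translation factor genes, 9 of 33 synthetase genes (27.3%) and 66 of 92 ribosomal protein genes (71.7%). That share was 22.5% over all protein-coding genes. The median summit distance was -99 bp at translation factor genes, -101 bp at synthetase genes and -15.5 bp at ribosomal protein genes.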

How the data were processed

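ChIP-seq of GFP-tagged CG2678 in whole embryos was analysed from 5 deposited peak lists on dm6, 1 per replicate, 1 pooled and 1 IDR list, per the file headers and labels. Each line gives the authors' signal and their deposited −log10 q-value. The q-value has a common maximum in each list and was not used. No aligner or peak caller is given in the sources used here. Control reads were not used here. It follows from the match of its peaks with the pooled list that the IDR list was called on pooled samples. Ranks from lists of different lengths show no change.

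Summits are the peak start plus the deposited offset, written 1-based. Gene models were Ensembl release 115 (BDGP 6.54), and sequence was the RefSeq copy of the assembly, whose arm lengths match. The members, lists and the rule for named genes were chosen with earlier results of these data known. All members with an IDR promoter summit are named, with ranks in every list for the 12 strongest and the 3 weakest, and more were added after their values were seen. The symbols DHPS and mEFG2 had no match, and Tor was matched as mTor. The ribosomal protein pattern takes in names that end in -like. Scoring was checked on simulated data. Alternatives were the promoter distance, the TSSs used, the summits and peaks used, the match distance and leaving out each replicate. Python 3.11.15, numpy 2.4.6, pandas 2.3.3, scipy 1.17.1 and matplotlib 3.10.9 were used.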

Additional observations from a re-analysis of the deposited data

How the results depend on the processing

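Over the 6 results on all translation factor genes, 55 of 56 alternatives kept the value within its 95% binomial interval (shares of genes or summits), 1 SD over replicates (the mean share) or 1.5 times (counts and the median rank). The exception was the number of genes matched in all replicates, 9, which ran from 9 to 14 when a replicate was left out, with 14 without replicate 3. It was 6 when summits had to lie within 50 bp and 11 within 200 bp. These bands were wide, so a value could move far and still count as kept. For the share with an IDR promoter summit the band was 19.5% to 45.6%, which takes in the 22.5% of all protein-coding genes. That share was 29.6% within 250 bp, where eIF2beta was lost (17.3% of all protein-coding genes). Within 1000 bp it was 33.3%, where eIF2Bbeta was gained (26.6%). It was 27.8% with each summit given to the nearest gene, or to each gene at a tie, where eIF4EHP and eIF6 were lost (17.8%). In the stronger part of the IDR list it was 24.1% (15.1%). With peaks matched in the other replicates it ran from 20.4% without replicate 1 (16.8%) to 27.8% without replicate 3 (18.3%). Of 106 ranks of single genes under alternatives 98 were the same, and the 8 others were of eIF1, eIF3h, eEF1alpha1 and eIF4A, which have several summits. The change at eIF4A was small, with a rank of 8025 at the 5′-most TSS against 7563. Samples of different groups could not be paired because there was 1 group, and the shares of different genes within a replicate were compared by description only. Read depth is unknown, so no lower limit of detection can be set.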
